A study of Mus musculus with 2 samples.

Results

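Accessible sites at the 3′ ends of protein-coding genes are the subject here. They were taken from DNase-seq peak lists of mouse thymus as autosomal peaks that met 3 conditions. The peak midpoint lay within 1 kb of the 3′ end of a protein-coding gene, more than 1 kb from every annotated transcription start site, and outside coding sequence. In mouse 1 this gave 999 of 57973 autosomal peaks (1.72%), and in mouse 2 it gave 1542 of 71126 (2.17%). The mean was 1270.5 ± 384 sites per mouse (SD, n = 2). The whole peak lists, sex chromosomes included, held 59484 and 72913 peaks.

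The samples were thymus from 2 female B6CASTF1/J mice of 36 days, the first-generation hybrids of C57BL/6J and CAST/EiJ, with 1 library per mouse. They form a single group with no contrast of treatment or genotype, and the spread between them is the only replicate error. The labels number the animals and biological replicates separately but list 1 donor identifier for both libraries. If that identifier stands for a single animal and not for the cross, every SD given here is technical. Sites of 1 library are not replicates of each other. With 2 mice the smallest two-sided p of an exact sign test is 0.5, so the differences below are given as values in each mouse and carry no test.

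DNase I cuts DNA that is not wrapped tightly in nucleosomes, and a peak marks a stretch that was cut often. A footprint is a short protected stretch inside such a site, of the kind a bound protein leaves. The 3′ end of a gene is where its transcript is cleaved and polyadenylated, usually just after a poly(A) signal hexamer in A- and T-rich sequence. Accessible sites near gene ends can hold enhancers, boundary elements bound by the architectural protein CTCF, or promoters missing from an annotation. Thymocytes, the developing T cells, make up most of the thymus.

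The following stretches show the kind of sequence that was protected in both mice at 3′ end sites. They come from the strongest sites found in both mice and from sites of T-lineage genes, and each one holds a motif match lying whole inside a footprint of both mice. The NRF1 stretch of Ripor1 lay inside the peak of mouse 1 only. In mouse 2 the peak ended at 105622680 and the footprint began at 105622695. They are given 5′ to 3′ on the plus strand of the C57BL/6J reference (mm10). CAST/EiJ alleles were not read. Capitals mark the motif letters on either strand. The first 3 carry the CTCF core, whose fixed letters are CC, AG and GGC with 3 and 2 free bases between them. In the other 7 lines the capitals belong to other motifs. Exonic stretches are limited to 30 bases.
Lag3, chr6:124903720-124903778, CTCF: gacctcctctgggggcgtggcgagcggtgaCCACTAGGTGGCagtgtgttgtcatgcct
Ripor1, chr8:105622552-105622599, CTCF: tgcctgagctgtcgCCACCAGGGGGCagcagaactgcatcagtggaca
Zbtb7b, chr3:89378467-89378493, CTCF: ggcatggCCACCAGATGGCgctagctt
Ripor1, chr8:105622685-105622726, NRF1: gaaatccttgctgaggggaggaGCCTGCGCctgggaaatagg
Lrrc24, chr15:76715299-76715325, TCF1/LEF1 and NRF1: ttaCTTTGAGCATGCGCggagctgcac
Fam120a, chr13:48878784-48878832, SP/KLF: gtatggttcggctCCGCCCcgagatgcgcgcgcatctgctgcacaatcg
Sec14l2, chr11:4096769-4096824, YY1 and ETS: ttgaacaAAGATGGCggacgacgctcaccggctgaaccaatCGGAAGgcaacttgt
Sf3b5, chr10:13008430-13008449, ETS: gcaCTTCCGCTTCCGcctag
Ikzf3, chr11:98464724-98464747, RUNX: catgaacaaTGTGGTgcagctcac
Cd6, chr19:10788392-10788428, E-box: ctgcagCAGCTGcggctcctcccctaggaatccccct

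The protected stretch at the Lag3 site was called at the same 47 bp in both mice. At the CTCF match of the Ripor1 site the footprint spanned 36 bp in mouse 1 and 34 bp in mouse 2, and at the Zbtb7b match it spanned 22 and 27 bp. The Sec14l2 footprint, which holds both a YY1 and an ETS match, spanned 44 and 40 bp. The 2 adjacent ETS matches of the Sf3b5 site lay in footprints of 20 and 13 bp, of which the shorter holds only the second match whole. The Ikzf3 footprint was short in both mice, at 12 and 7 bp.

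The tissue label was checked at promoters. All 20 T-cell receptor and co-receptor genes, all 20 thymocyte transcription factor genes and all 12 recombination and pre-TCR genes had a promoter peak in both mice. Among markers of other cells this held for 7 of 15 B-cell, 6 of 15 myeloid, 5 of 15 thymic epithelial and 6 of 15 mesenchymal and endothelial genes. It held for 1 of 14 hepatocyte, 4 of 14 neuronal and 2 of 15 muscle genes. All 16 autosomal housekeeping genes of the list also had a promoter peak in both mice, as did 11636 of the 20402 autosomal protein-coding genes counted below. A promoter peak is thus not particular to T-lineage genes. In a whole tissue, fewer cells of a type and a weaker site in each cell cannot be told apart. Peak height (signal) is the authors' value on a scale that is not named, and it was taken here to be depth-normalised. Its values were whole multiples of 0.00638 in mouse 1 and 0.00504 in mouse 2, to within 0.1 of such a step. The median 3′ end site stood 172 such steps high in mouse 1 and 250 in mouse 2, and the lowest stood at 22 and 16.

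Accessible sites were modestly denser at gene ends than farther out. Density was counted over eligible bases, those more than 1 kb from every start site and outside coding sequence, of which 32.3 Mb lay within 1 kb of an end. There were 30.9 sites per Mb in mouse 1 and 47.7 in mouse 2. In the flank 2 to 5 kb from the same ends the density was 27.0 and 39.0 per Mb. The ratio of the windows was 1.14 and 1.22 (mean 1.18 ± 0.057, SD, n = 2), above 1 in 2 of 2 mice. The share of bases in regions of significant cutting was likewise higher near the ends, at 1.67% against 1.39% in mouse 1 and 2.26% against 1.78% in mouse 2.

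The excess over the flank was larger on the gene side than beyond the end. Upstream of the end, inside the gene, the density was 28.8 per Mb in mouse 1 and 45.5 in mouse 2, which was 1.23 and 1.28 times that of the upstream flank. Beyond the end it was 32.8 and 49.7 per Mb, or 1.08 and 1.17 times the downstream flank. The downstream kilobase still held more sites per Mb than the upstream one, by a factor of 1.14 in mouse 1 and 1.09 in mouse 2. In the flanks that factor was larger, at 1.31 and 1.20. The share of accessible bases did not show this difference between the sides within 1 kb, with a downstream to upstream ratio of 1.005 in mouse 1 and 0.962 in mouse 2. When peaks with any base in coding sequence were left out, the density ratio of the sides was 1.33 and 1.28 within 1 kb and 1.46 and 1.37 in the flanks. The excess over the flank was then 1.18 and 1.26 on the gene side and 1.08 and 1.18 beyond the end. The eligible bases were left unchanged for this, so bases beside coding sequence stayed in the count. The density fell to 24.3 and 38.2 per Mb on the gene side and to 32.3 and 48.7 beyond the end. Part of the rise in the ratio of the sides can therefore follow from the setting itself.

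Few sites were centred on the end itself. Within 50 bp of the annotated end there were 20 peak midpoints in mouse 1 and 21 in mouse 2, or 11.2 and 11.7 per Mb. From 51 to 500 bp the density was 30.5 and 47.8 per Mb upstream and 34.1 and 54.2 downstream. From 151 to 300 bp beyond the end it was 41.9 and 66.4 per Mb, a stretch chosen after the profile was seen. In single bins of 50 bp mouse 1 was highest elsewhere, with 47.1 per Mb from 651 to 700 bp beyond the end. The base composition moved with this dip. G+C was 36.6% within 50 bp of the end, 32.3% in the last 50 bp of the gene, and 44.8% from 151 to 300 bp beyond it. The part of base composition in the dip was not tested. Accessible bases dipped less than midpoints did, to 1.24% and 1.60% within 50 bp, against 1.72% and 2.35% from 51 to 500 bp upstream.

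**Figure D1:**
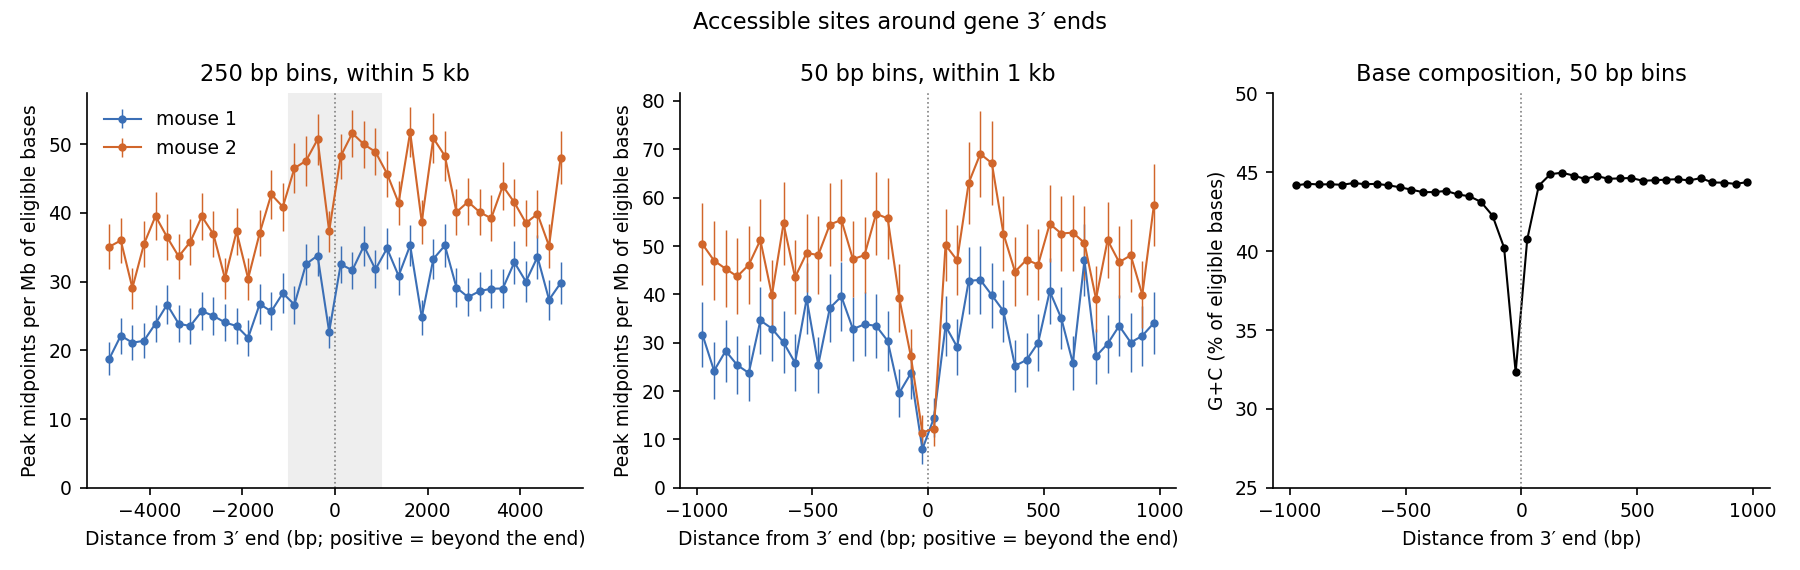
Peak midpoints per Mb of eligible bases against distance from the 3′ end in bp, in 250 bp bins within 5 kb (left; grey, the 1 kb window) and 50 bp bins within 1 kb (middle), for mouse 1 (blue) and mouse 2 (orange), with bars of the square root of the count (counting error only). The right panel gives the G+C percentage of the same bases, and both the density and G+C are lowest at the end, where mouse 1 had 11.2 and mouse 2 had 11.7 midpoints per Mb within 50 bp.

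By position, the largest groups lay between genes and in untranslated exons. Between genes there were 464 sites in mouse 1 (46.4%) and 666 in mouse 2 (43.2%). Untranslated exons of protein-coding genes held 383 (38.3%) and 621 (40.3%). Introns held 141 and 239 sites, and exons of noncoding genes held 11 and 16. Beyond the end lay 565 sites in mouse 1 (56.6%) and 856 in mouse 2 (55.5%), of which 71 and 138 were inside the body of another protein-coding gene. The sites belonged to 842 gene ends in mouse 1 and 1223 in mouse 2. Most ends had 1 site (716 and 995), and 23 and 69 ends had 3 or more, up to 5. Within 1 kb of the ends of at least 2 genes lay 60 sites in mouse 1 and 120 in mouse 2.

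In height and composition the sites resembled other distal sites far more than promoters. Their median signal was 1.10 in mouse 1 and 1.26 in mouse 2. Intron peaks had 1.008 and 1.14, intergenic peaks 0.996 and 1.15, and promoter peaks 1.79 and 2.81. The median log2 signal exceeded that of introns by 0.12 and 0.15. Against peaks of the 2 to 5 kb flank, with medians of 1.07 and 1.31, the direction differed between the mice. Median width was 200 and 180 bp, as for intron peaks. Median G+C was 52.8% and 53.5%, above the 50.5% and 51.5% of intron peaks.

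CpG-rich sites, with G+C of at least 50% and a CpG observed to expected ratio of at least 0.6, numbered 54 in mouse 1 (5.41%) and 86 in mouse 2 (5.58%). Among intron peaks this share was 2.48% and 2.81%, among flank peaks 6.05% and 5.52%, and among promoter peaks 55.3% and 56.7%. CpG-rich 3′ end sites were the taller ones, with a median signal of 1.90 and 3.38 against 1.06 and 1.22 for the rest. Of these, 35.2% in mouse 1 and 26.7% in mouse 2 lay 1 to 2 kb from a start site, against 22.9% and 23.1% of all 3′ end sites. Repeats covered on average 11.9% and 13.0% of the sequence around the sites, against 14.2% and 15.5% at introns. Footprints were called in 91.2% and 89.1% of sites, at 1.42 and 1.38 per 100 bp, close to the 1.36 and 1.38 of introns.

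CTCF matches were common among these sites. The core pattern described above occurred on either strand within 100 bp of the midpoint in 255 sites of mouse 1 (25.5%) and 395 of mouse 2 (25.6%). Intron peaks held it in 17.1% and 22.2%, promoter peaks in 11.6% and 13.8%, and peaks of the 2 to 5 kb flank in 25.3% and 28.4%. Intergenic peaks held it in 20.6% and 25.6%. The share at 3′ end sites was thus above that of introns and close to or below that of the flank. It was above that of intergenic peaks in mouse 1 and nearly equal to it in mouse 2. Written backwards the pattern occurred in 0.70% and 1.04% of 3′ end sites, but the reversal creates a CpG that the pattern itself lacks. Of the CTCF matches inside the peaks, 169 of 272 in mouse 1 (62.1%) and 321 of 411 in mouse 2 (78.1%) lay whole inside a footprint, as at the Lag3 and Ripor1 sites above. Intron peaks had 60.2% and 76.5%. Beyond the end, 95 of 159 matches in mouse 1 (59.7%) and 139 of 243 in mouse 2 (57.2%) were on the strand of the gene, and before the end 58 of 113 (51.3%) and 83 of 168 (49.4%) were.

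Motifs of promoter-type factors were less frequent. SP/KLF (GGGCGG) occurred in 14.3% of sites in mouse 1 and 15.2% in mouse 2, against 10.1% and 11.2% of introns and 43.1% and 47.0% of promoters. Peaks of the 2 to 5 kb flank were closer, with SP/KLF in 13.5% and 13.9%. Its letters written backwards were nearly as frequent, in 14.0% and 14.3% of sites. Its matches lay in a footprint in 44.4% and 47.1% of cases, against 46.1% and 49.4% at introns. NRF1 (GCGCANGC) occurred in 2.30% and 2.46% of sites, YY1 (AAGATGGC) in 1.70% and 1.62%, and ETS (CGGAAG) in 8.01% and 6.94%. The reversed ETS letters occurred in 16.9% and 15.6%, but they lack the CpG of the motif and are no like control. Introns had the same order, with 7.15% and 6.54% for ETS and 14.9% and 15.4% for its reversal. Footprints covered 28.4% and 29.3% of the ETS matches and 31.3% and 29.2% of the YY1 matches. Matches of lymphoid factors were somewhat rarer than at introns. TCF1/LEF1 (CTTTGA) occurred in 12.1% and 10.4% of sites against 17.4% and 13.8% of introns, and RUNX (TGTGGT) in 21.2% and 18.8% against 25.7% and 22.3%. The reversed TCF1/LEF1 letters were also rarer than at introns, in 8.81% and 8.63% of sites against 12.1% and 10.9%. The E-box CAGCTG occurred in 21.3% and 19.7%, against 22.0% and 21.5%. In flank peaks TCF1/LEF1 occurred in 16.5% and 13.0%, RUNX in 22.0% and 19.6%, and the E-box in 19.6% and 18.0%. Against the flank TCF1/LEF1 was thus rarer at 3′ end sites, RUNX nearly equal and the E-box more frequent. SP/KLF and NRF1 letters can overlap in GC-rich sequence, and a match is not evidence of binding.

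The poly(A) signal hexamer AATAAA, read on either strand, was found in 10.2% of sites in both mice, against 8.69% and 9.18% of introns. It was most frequent in sites centred in the last 250 bp of the gene, at 22.6% in mouse 1 and 24.8% in mouse 2. Few of its matches lay in a footprint, 3 of 105 (2.86%) and 8 of 154 (5.19%), a lower share than for the CTCF and SP/KLF matches. Intron peaks had nearly the same shares for the hexamer, 3.33% and 5.38%.

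Of the 999 sites of mouse 1, 802 (80.3%) overlapped a peak of mouse 2, and of the 1542 sites of mouse 2, 827 (53.6%) overlapped a peak of mouse 1. The mean share was 66.96 ± 18.84% (SD, n = 2). Intron peaks gave 78.04% and 61.2%, intergenic peaks 79.5% and 63.0%, and flank peaks 82.4% and 57.2%. The sites of mouse 2 were therefore found again less often than its intron peaks, while those of mouse 1 were found slightly more often. With all autosomal peaks of mouse 2 ranked by signal in 5 equal groups, sharing of 3′ end sites went from 13.3% in the weakest through 36.3%, 56.3% and 89.6% to 100% in the strongest, against 23.8%, 48.9%, 73.2%, 93.2% and 99.6% of introns. In mouse 1 the same series was 52.4%, 75.2%, 87.7%, 95.2% and 100%, against 55.3%, 71.4%, 85.7%, 95.4% and 99.3%. All 107 sites of mouse 1 and all 159 of mouse 2 in the strongest group were shared.

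**Figure D2:**
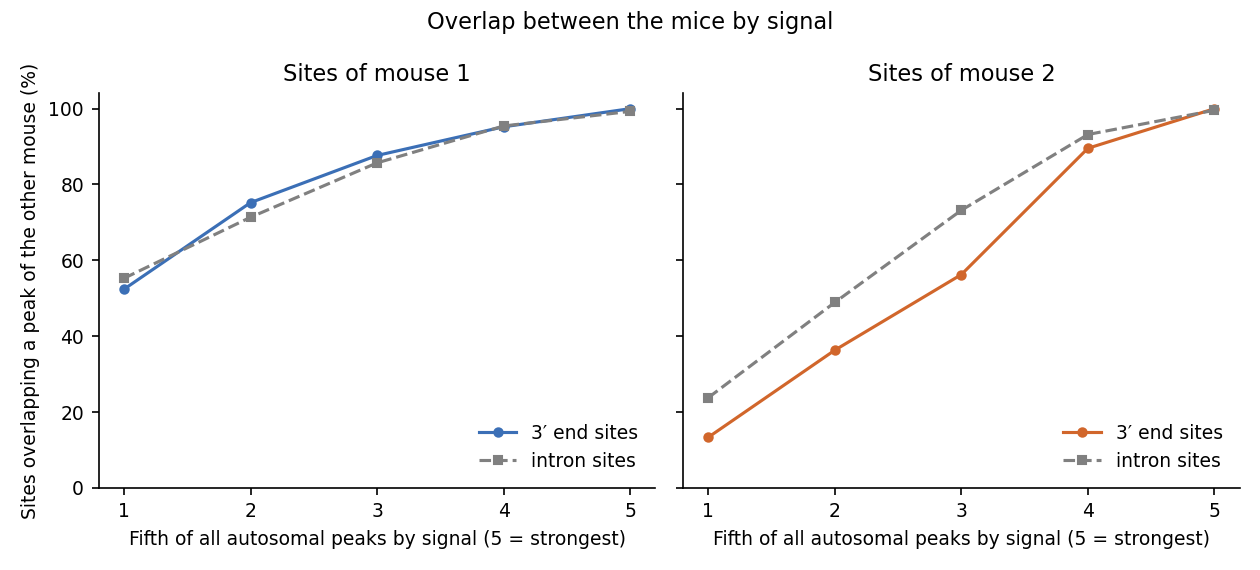
Percentage of sites that overlap a peak of the other mouse, against the signal group of the site among all autosomal peaks of its mouse (1, weakest; 5, strongest), for 3′ end sites (solid) and intron sites (dashed). In mouse 2 the 3′ end sites lie below the intron sites in the 4 weaker groups, and in mouse 1 the lines run close together.

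The unshared sites, 197 in mouse 1 and 715 in mouse 2, were weak. Their median signal was 0.632 and 0.715, against 1.28 and 2.24 for the shared ones. Of them 41.1% and 37.6% overlapped a peak in the longer list of the other mouse, and 54.8% and 43.6% touched a region of significant cutting there. Footprints were also found again. In shared sites, 69.9% of the footprints of mouse 1 and 62.9% of those of mouse 2 overlapped one of the other mouse, against 60.6% and 58.7% in shared intron peaks.

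At 774 sites the peaks of both mice were each other's best overlap and both met the conditions. Their log2 signals had a Pearson r of 0.794 and a Spearman rho of 0.783 across sites, which share 2 libraries and are not independent. The signal was higher in mouse 2 at 644 of them (83.2%), with a median log2 ratio of 0.75 (SD 0.75 across sites). The ratio moved with base composition. All paired autosomal peaks were ranked by G+C in 5 equal groups, of which the highest held only 23 of the 774 sites. From the lowest to the highest G+C group the ratio was 0.41, 0.53, 0.84, 0.90 and 1.36 at 3′ end sites, and 0.14, 0.28, 0.48, 0.73 and 1.28 at introns. The same order thus held outside gene ends. The part of base composition in the ratio was not tested.

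The ratio also moved with the CTCF match. Where both windows held the match, mouse 2 was higher at 213 of 226 sites with a median log2 ratio of 1.31. Where neither held it, mouse 2 was higher at 421 of 535 sites with a median of 0.52. Median G+C of these sets was nearly the same, 52.8% and 53.5%. At introns the corresponding ratios were 1.19 and 0.26, so the same order held away from gene ends. In mouse 1 the sites with a match were the lower ones (median signal 0.970 against 1.13 without), and in mouse 2 they were the higher ones (1.72 against 1.10). They were found again more often in both mice, in 92.9% against 75.9% for mouse 1 and 62.3% against 50.7% for mouse 2. Among intron peaks of mouse 2 the order was the reverse, with a match in 20.3% of the shared and 25.1% of the unshared ones, against 29.7% and 20.8% at 3′ end sites.

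**Figure D3:**
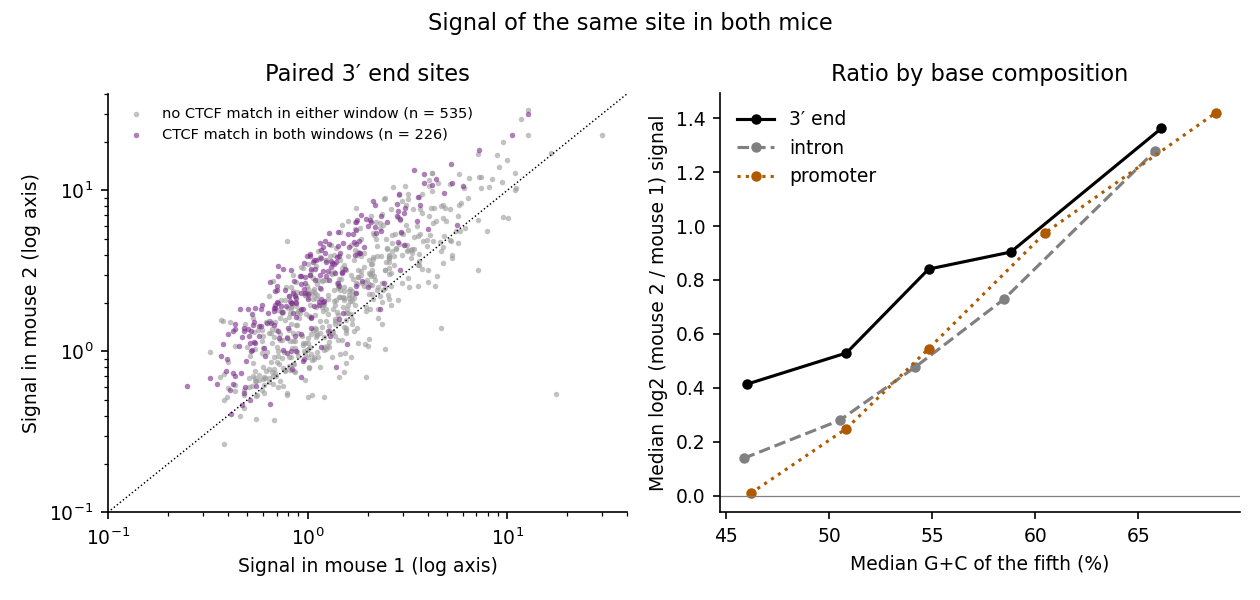
Left, signal of each paired 3′ end site in mouse 1 and mouse 2 on log axes, with sites holding a CTCF match in both windows in purple (n = 226) and in neither in grey (n = 535); the dotted line marks equal signal and most purple points lie above it. Right, median log2 ratio of mouse 2 to mouse 1 against the median G+C of each of 5 composition groups, rising from 0.41 to 1.36 at 3′ end sites and also at introns and promoters. The groups were set over all paired autosomal peaks, and the highest holds 23 of the 3′ end sites.

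The 10 strongest sites present in both mice were at genes of varied function. The highest mean was at Cers5, a ceramide synthase gene, in the untranslated exon 900 bp before its end (chr15:99735641-99735920 in mouse 1), with a signal of 29.7 in mouse 1 and 22.2 in mouse 2. It was the only one of the 10 strongest that was higher in mouse 1, and it held none of the 13 motifs. The Fam120a site, 438 bp beyond the end, had 12.7 and 31.6, was CpG-rich, and carried the SP/KLF match printed above. The Lag3 site, 640 bp beyond the end of the gene of an inhibitory receptor of T cells that binds MHC class II, had 12.7 and 30.01. The Ripor1 site, 412 bp beyond the end and within an intron of an overlapping gene, had 10.6 and 22.2. As listed in mouse 1 it held both a CTCF and an NRF1 match.

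Cacnb1, which encodes a calcium channel beta subunit, had nearly equal values at its strongest site, 16.6 in mouse 1 and 17.1 in mouse 2, at 917 bp beyond the end. A further site at 97 bp beyond the Cacnb1 end in mouse 1 and 107 bp in mouse 2 reached 9.46 and 11.3. Dnajb12, a chaperone gene, had 12.7 and 22.1, and Sec14l2, a lipid-transfer protein gene, had 9.53 and 19.9. Lrrc24 had 8.92 and 16.7 at 85 bp before its end. Sf3b5, which encodes a subunit of the splicing factor SF3b, had 9.93 and 15.5. The Lars2 site, in the last exon of the mitochondrial leucyl-tRNA synthetase gene, had 11.7 and 27.8. Its sequence has 13 other places in the reference that are at least 90% identical over at least 50 bp, so reads there may be shared with other loci. No other site among the 10 had such a place.

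The 5 strongest unshared sites of mouse 1 reached 2.45 at Gm10719, 2.16 at Lpxn, 2.07 at Dnajc3, 1.75 at Rassf3 and 1.75 at Capn11. The Gm10719 sequence was 87.0% repeat and had 111 near-identical places elsewhere in the reference. Mouse 1 had 2 sites in the repetitive start of chromosome 9, up to a signal of 17.5, and mouse 2 had 1 there, at 0.544. The strongest unshared sites of mouse 2 were taller, at 4.43 for Rgcc, 4.12 for Dda1, 3.92 for Map1lc3b, 3.89 for Atp5d and 3.85 for Olfr750. The first 3 of these held a CTCF match. The first 4 of these overlapped a peak in the longer list of mouse 1, and all 5 touched a region of significant cutting there.

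Of 20402 autosomal protein-coding genes with eligible bases at their end, 770 (3.77%) had a 3′ end site in both mice, 908 in mouse 1 and 1313 in mouse 2. Without regard to neighbours or length, genes with an open promoter had more. Among 11636 genes with a promoter peak in both mice, 537 (4.61%) had a site in both, at 39.996 sites per Mb in mouse 1 and 63.9 in mouse 2. Among 7333 genes with no promoter peak in either mouse, 171 (2.33%) did, at 18.5 and 25.2 per Mb. The height of the promoter was less informative. Over the open genes ranked by promoter signal in 5 equal groups, the share with a site in both mice was 4.25%, 5.03%, 5.37%, 4.30% and 4.13%. Across genes with both a promoter peak and a 3′ end site, the signals had a Spearman rho of 0.056 in mouse 1 (619 genes) and -0.029 in mouse 2 (982 genes).

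Neighbouring genes went with denser sites. Genes whose end lay within 5 kb of the end of a gene on the opposite strand numbered 4527 and had 40.5 sites per Mb in mouse 1 and 70.6 in mouse 2. Where instead the start of the next gene on the same strand lay within 5 kb beyond the end, in 2152 genes, the density was 50.7 and 75.4. The 13723 genes with neither had 26.9 and 40.2. Among genes with no promoter peak the contrast was wider, with 41.3 and 55.9 per Mb for end-to-end neighbours against 13.8 and 19.03 for genes with neither. Among short open genes, under 10 kb, the density was 55.9 and 101 per Mb, against 24.0 and 37.4 for open genes of 100 kb and over. For genes with no promoter peak in either mouse the order was the reverse. They had 13.2 and 21.03 per Mb under 10 kb, against 24.9 and 28.1 at 100 kb and over. In these strata an open promoter did not always go with a higher share of genes with a site in both mice. That share was 4.11% for open and 5.05% (48 of 951) for closed genes with an end-to-end neighbour. For genes of 100 kb and over it was 3.56% and 4.06% (20 of 493). The mice differed when each was counted alone. In mouse 1 the shares were 5.14% for open and 5.36% for closed genes with an end-to-end neighbour, and 4.09% and 4.26% for the long genes. In mouse 2 the open genes had the larger shares, 8.76% against 7.36% and 5.81% against 4.46%. These windows can overlap, so a site between neighbours counts for both genes.

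**Figure D4:**
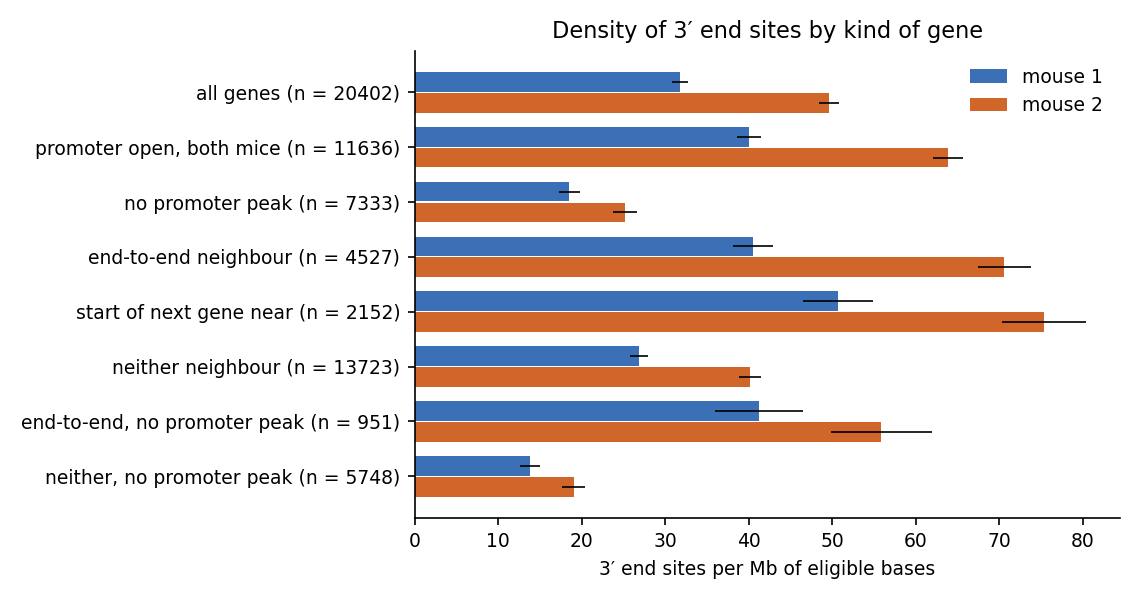
Sites per Mb of eligible bases within 1 kb of the 3′ end, by kind of gene, for mouse 1 (blue) and mouse 2 (orange), with bars of the square root of the count scaled to Mb (counting error only). Genes with an open promoter or a near neighbour have the longer bars, and genes with no promoter peak and no near neighbour have the shortest, at 13.8 and 19.03 per Mb.

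The T-cell lists held larger shares of genes with a 3′ end site than the 3.77% of all genes, but so did most lists of other cell types. All are short and were chosen with earlier results of these data known. Of 20 T-cell receptor and co-receptor genes, 5 had a site in both mice (25%), 5 in mouse 1 and 8 in mouse 2. Of 20 thymocyte transcription factor genes, 3 did (15%), and of 12 recombination and pre-TCR genes, 2 did (16.7%). Of 13 housekeeping genes with eligible bases none did in either mouse, a number of genes too small to tell 0 from the background share. All genes of the 3 T-cell lists had open promoters, and among all genes with open promoters the share was the 4.61% given above.

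Cd2, the gene of an adhesion receptor of T cells, had the tallest of these sites. At 878 bp beyond its end the signal was 11.0 in mouse 1 and 10.3 in mouse 2, above its promoter peaks of 5.76 and 3.49. A second Cd2 site in an intron, 802 bp before the end in mouse 1 and 772 bp in mouse 2, had 3.62 and 4.03, and a weak site just beyond the end had 1.05 and 0.882. Cd6, which encodes a scavenger-type T-cell receptor, had 5.58 and 8.28 at 880 and 870 bp beyond the end, where the E-box printed above lay in a footprint of both mice. Cd8b1, for the CD8 beta chain, had 5.16 and 4.95 at 400 and 327 bp beyond the end. At the main sites of Cd2 and Cd8b1 mouse 1 was slightly higher, against the trend of the libraries, and at Cd6 mouse 2 was higher.

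The CD3 genes had weaker sites. Cd3e had 1.91 in mouse 1 and 2.56 in mouse 2, at 419 and 399 bp beyond the end. Cd3g had 1.30 and 1.25 in its 3′ untranslated exon, at 81 and 115 bp before the end. Cd3d had 1 site, in mouse 2, at 1.27, and Cd8a had 2 weak ones there, at 0.680 and 0.811. In each of these genes the site was lower than the promoter peak, which for Cd3e reached 7.001 and 9.11.

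Among transcription factor genes, Ikzf3, which encodes Aiolos, had a pair of sites beyond its end in both mice. The outer one, at 831 and 851 bp, had 2.77 in mouse 1 and 4.30 in mouse 2, and the inner one, at 161 and 176 bp, which carries the RUNX match printed above, had 2.25 and 1.82. Zbtb7b, which encodes ThPOK, the factor that directs the CD4 lineage, had a site in its untranslated exon with 1.61 and 4.74, at 967 and 907 bp before the end, where the CTCF match printed above was footprinted in both mice. That signal compares with 2.16 and 4.88 at the Zbtb7b promoter. Tcf7, which encodes TCF1, had 1 site in mouse 1 at 0.5999 and 4 in mouse 2, between 0.408 and 0.942. Ccr7, a chemokine receptor gene of maturing thymocytes, had 2.14 and 2.94 at 204 and 175 bp beyond the end. Dtx1, a Notch-regulated gene, had 1.09 and 1.68 before its end, and in mouse 2 a further site at 1.78 that is nearer to the end of Rasal1.

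**Figure D5:**
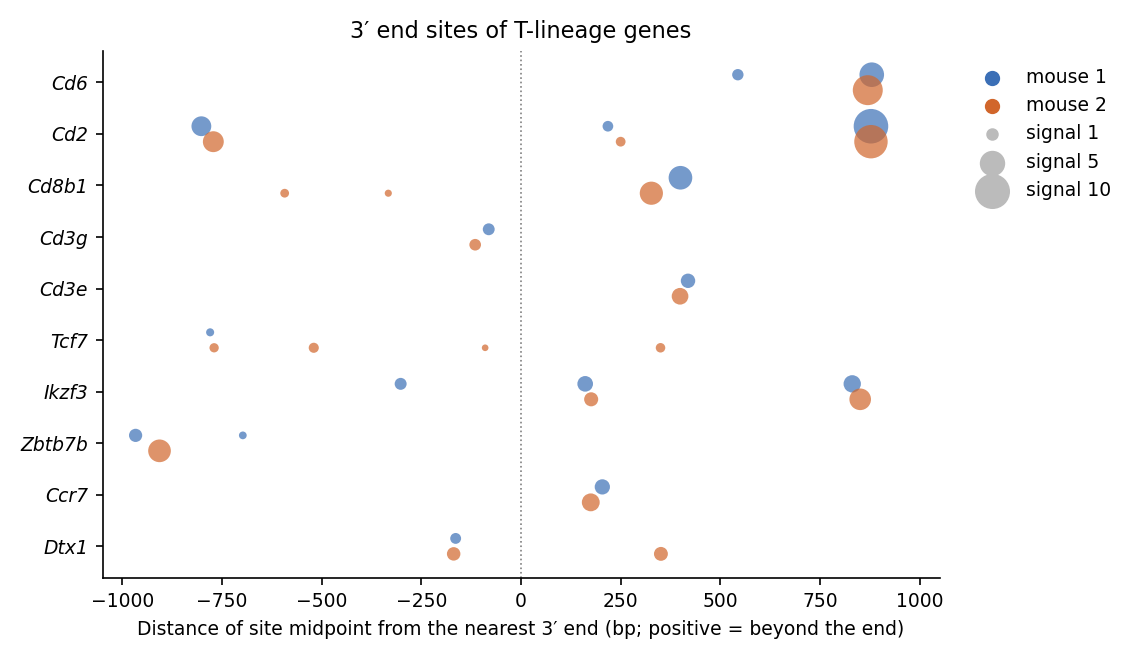
Position of each 3′ end site of the 10 T-lineage genes with a site in both mice, as distance in bp from the nearest 3′ end, with circle area in proportion to signal, for mouse 1 (blue) and mouse 2 (orange). The largest circles are at Cd2, 878 bp beyond the end, with signals of 11.0 and 10.3, and the main sites of Cd6, Cd8b1 and Ikzf3 also lie at similar places in both mice.

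Markers of other cells also had sites in both mice, with shares of 13.3% for B-cell genes, 6.67% for thymic epithelial, mesenchymal and endothelial, and muscle genes, and 7.14% for hepatocyte genes. Among 15 B-cell genes these were Ebf1, at 0.823 in mouse 1 and 3.22 in mouse 2, and Blk, at 0.913 and 2.92. Of 15 thymic epithelial genes with eligible bases Foxn1 had one, at 0.753 and 1.75 in its untranslated exon, although no promoter peak of Foxn1 was listed in either mouse. Kdr, of 15 mesenchymal and endothelial genes, had 0.364 and 0.690. Pck1, of 14 hepatocyte genes, had 0.944 and 1.84 with no promoter peak, and Myl2, of 15 muscle genes, had 0.772 and 2.40. No neuronal (0 of 13) or myeloid (0 of 14) gene had a site in both mice. The myeloid gene Flt3 had one counted in mouse 2 only, at 5.45, with its midpoint at the 1000 bp limit. It was stronger than any site of mouse 2 without an overlapping peak in mouse 1. A mouse 1 peak thus overlapped it without being counted as a Flt3 site. All 6 sites of these lists that were counted in both mice were higher in mouse 2, as were 644 of all 774 paired sites (83.2%).

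The genes with most sites were led by Evc, with 5 sites in mouse 1 and 3 in mouse 2. All were low, from 0.447 to 0.530 in mouse 1 and from 0.509 to 1.71 in mouse 2, and Evc had no promoter peak in either mouse. Grb7, Med29 and P3h4 had 3 and 4 sites each. Med29, a Mediator subunit gene with promoter peaks of 16.1 and 20.8, had sites from 1.30 to 3.57 in mouse 1 and from 0.720 to 9.14 in mouse 2. P3h4 had sites from 2.14 to 4.01 and from 2.13 to 4.55, and Grb7 from 0.274 to 0.740 and from 0.544 to 1.91. Acoxl, Bcl9l, Cacnb1 and Cd2 followed, with 6 sites each over both mice.

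The distance limits cut through a continuous distribution. In mouse 1 the site nearest the 1 kb limit from inside was at Nr5a1, 998 bp beyond the end with a signal of 0.402, and the nearest peak outside was at Osbpl3, 1001 bp before the end with 1.94. In mouse 2 they were at Flt3, 1000 bp before the end with 5.45, and at Bves, 1002 bp beyond it with 1.36. For the distance from start sites they were Kifc5b at 1001 bp with 0.913 and Wbp2 at 1000 bp with 1.53 in mouse 1, and Rab25 at 1003 bp with 0.343 and Phospho1 at 998 bp with 1.47 in mouse 2.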

How the data were processed

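DNase-seq was done on thymus of 2 mice, and each library was processed alone. Per the text deposited with the files, the authors derived peaks and cut rates from the filtered alignments of each library on mm10, and footprints from cut rates and alignments. No source used here names the aligner, the callers or their thresholds. The signal column that the authors deposited is a peak height whose scale is not named, and it was taken to be depth-normalised. The p-value column of the deposited cut-rate lists is an FDR, listed below 0.05, and footprints were taken by position alone, since their deposited value never varies. The shorter of the 2 peak lists of each library was used.

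Gene ends, start sites, coding sequence and exons came from GENCODE M21, and sequence, repeats and assembly gaps from the RefSeq copy of GRCm38. Peaks were classed by midpoint in the order promoter, coding exon, 3′ end, other exon, intron and intergenic. Sites overlapping by at least 1 bp were counted as shared. The 13 motifs were searched on both strands in 201 bp around the midpoint, G+C and CpG content in 301 bp. Copies were sought with BLAST+ 2.17.0 (at least 90% identity over 50 bp), and the rest was computed with Python 3.11.15, numpy 2.4.6 and pandas 2.3.3. The counting steps were tested on simulated data.

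Named sites are the 10 strongest listed as 3′ end sites in both mice, the 5 strongest unshared ones of each mouse, those nearest each limit, the 5 genes with most sites with ties, and genes of 3 T-cell lists with a site in both mice. Genes of the other lists with a site in both mice, Cd3d, Cd8a, Flt3 and the second Cacnb1 site were named after their values were seen. The members, lists and motifs were chosen with earlier results of these data known. The printed sequences follow a rule made after seeing the footprints. Alternatives were the longer list, the stronger 50% of peaks, a 500 bp window, 2.5 kb from start sites, ends of every transcript, no coding base in the peak, another flank, a stricter overlap and each mouse alone.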

Additional observations from a re-analysis of the deposited data

How the results depend on the processing

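Over 76 alternative values, 48 stayed within the spread between the mice (within 1.5 times for counts, and within the SD across sites for the signal ratio) and 28 moved. Only the density ratios, the log2 signal difference from introns and the signal ratio of the mice have a direction. None of these changed direction. For counts and shares no such change was possible. The values of each mouse alone are among the 76. Except for counts, they fall within the SD of 2 mice by arithmetic, so their place among the 48 carries no information. The mean number of sites was 2033.5 with the longer list, 559 with the stronger 50% of peaks and 644.5 with a 500 bp window. Genes with a site in both mice then numbered 1156, 351 and 404. The density ratio to the flank was 1.11 with the ends of every transcript and 1.28 against the flank 5 to 10 kb away. The downstream to upstream ratio was 1.25 with the stronger 50% and 1.30 without peaks touching coding sequence, where the eligible bases were left unchanged. The log2 signal difference from introns was 0.187 with the longer list, 0.064 with the stronger 50%, 0.186 with the 500 bp window and 0.090 with every transcript. Footprints per 100 bp were 1.17 with the longer list and 1.63 with the stronger 50%. The CpG-rich share was 4.49% with the longer list, 8.72% with the stronger 50%, 5.74% with the 500 bp window, 4.74% at over 2.5 kb from start sites, 5.01% with every transcript and 4.48% without peaks touching coding sequence. In the same order of settings, leaving out every transcript, the CTCF share was 21.002%, 26.7%, 26.4%, 27.2% and 26.3%, where the 26.7% of the stronger 50% averages 20.6% in mouse 1 and 32.7% in mouse 2. Apart from the smaller or larger sets that each setting makes by construction, the cause was not tested. With either mouse alone the results ranged from 999 to 1542 sites, 1.14 to 1.22 for the density ratio, 1.09 to 1.14 for downstream over upstream, 53.6% to 80.3% shared, 0.122 to 0.148 for log2 signal, 1.38 to 1.42 footprints, 5.41% to 5.58% CpG-rich, 25.5% to 25.6% with CTCF, and 908 to 1313 genes. No paired analysis was possible because both libraries belong to 1 group. No source used here states the number of reads, so intervals of single signals could not be set. Absence of a site means that no peak meeting the conditions was listed at the depth of that library.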
